A study of Mus musculus and Rattus norvegicus with 24 samples.

Results

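The genes described here encode the subunits of the mitochondrial respiratory chain and of ATP synthase. They were followed in the brains of mice and rats in which the middle cerebral artery had been closed for good (permanent occlusion, pMCAO), a model of stroke. Members were the transcript clusters, the probe groups of the array, that carry a single gene symbol. The symbol had to start with Nduf and a, b, c, s or v, with Uqcr, with Cox and a digit from 4 to 8, or with Atp5, or to be Sdha, Sdhb, Sdhc or Sdhd. Where a symbol had several clusters the brightest was used. This gave 89 of 22180 mouse genes and 100 of 18166 rat genes.

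There were 8 groups of 3 animals, with 1 animal on each of 24 arrays. The groups were male C57BL/6 mice with pMCAO, with tissue taken 2 h or 6 h after surgery, and sham-operated mice at the same times, aged 8 to 10 weeks. The others were male Sprague-Dawley rats with pMCAO at 2 h or 6 h, and sham-operated rats at the same times, aged 8 to 12 weeks. A suture was passed through the carotid artery to close the origin of the right middle cerebral artery in mice and the left one in rats, and it stayed in place, so blood flow was not restored. Sham animals had the same surgery under isoflurane without the occlusion. A piece of 3 by 3 mm was cut from the penumbra, the rim around the core of the infarct, or from the matching side and region of a sham brain. Each piece was whole tissue. In such tissue, fewer cells of a type and less RNA per cell cannot be told apart.

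Complexes I to IV of the inner mitochondrial membrane pass electrons from NADH and succinate to oxygen and, all but complex II, pump protons. Complex V, the ATP synthase, uses the resulting gradient to make ATP. Neurons depend on this supply, and it stops within minutes where oxygen is cut off. Most of the subunits are encoded in the nucleus, with a small set in mitochondrial DNA, and the nuclear factors NRF1 and GABP are known to bind many of the nuclear promoters.

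In mouse, the members comprised 34 genes named for complex I (6 core subunits, 26 accessory subunits, Ndufa4 and Ndufa4l2), 8 complex I assembly factors, 4 genes of complex II, 7 of complex III, 17 of complex IV and 17 of complex V. The remaining 2 were symbols of copies or pseudogenes. In rat the same classes held 34, 8, 4, 7, 16 and 14 genes, and 17 symbols of copies or pseudogenes. A gene and its copies can share probes, so readings of copies are uncertain. The members' clusters that carry a second symbol, 10 in mouse and 8 in rat, were left out. Mean array readings ran from 4.14 for Cox8c to 12.34 for Cox6a1 in complex IV of mouse, and from 5.68 for Ndufa4l2 to 11.31 for Ndufb9 in complex I. They depend on the probes of each cluster and are not compared between genes. A value is the log2 reading that the authors deposited for a cluster. A difference is the mean of pMCAO minus the mean of sham on the log2 scale, tested with limma and called where the adjusted p over all genes of a species was under 0.05.

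The promoters of Ndufaf1 and Cox7b2 are shown because both genes were called at 6 h in mouse and both have an entry in the promoter table. Each window is the 250 bases before the start of the gene, from RefSeq on GRCm38.p6, 5′ to 3′ on the gene's strand. The Ndufaf1 window lies at chr2:119662835-119663084 on the minus strand, and capitals mark CCGGAAG, the core recognised by GABP and other ETS factors, at bases -18 to -12. The Cox7b2 window lies at chr5:71548206-71548455 on the minus strand and holds none of the motifs searched, so it has no capitals.
Ndufaf1: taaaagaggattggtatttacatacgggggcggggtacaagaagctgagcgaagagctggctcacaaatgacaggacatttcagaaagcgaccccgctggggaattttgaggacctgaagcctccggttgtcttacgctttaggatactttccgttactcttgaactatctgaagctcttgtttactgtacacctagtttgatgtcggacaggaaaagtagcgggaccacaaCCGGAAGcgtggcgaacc
Cox7b2: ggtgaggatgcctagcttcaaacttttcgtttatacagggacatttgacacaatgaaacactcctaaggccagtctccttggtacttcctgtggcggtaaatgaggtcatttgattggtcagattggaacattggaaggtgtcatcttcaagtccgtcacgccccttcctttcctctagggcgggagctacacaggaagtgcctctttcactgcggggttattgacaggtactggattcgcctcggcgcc

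Of the 89 mouse members, 72 had a promoter window, and 4 motifs were searched on both strands over 300 bases, from 250 before to 50 after the start. CCGGAAG was found in 18 of the 72 windows, against 2465 of 27025 windows of all genes (9.12%). GCGCATGCG, the core of the NRF1 motif, was found in 10 windows (13.9%), against 489 windows of all genes (1.81%). With the sixth base free, as GCGCANGCG, it was found in 19 windows (26.4%), against 1749 (6.47%), and these include all matches of the stricter form. AAGATGGCG, a YY1 motif, was found in 6 windows (8.33%), against 404 (1.49%). One or more of these motifs stood in 36 of the 72 windows, and in 15.3% of the windows of all genes. The genes with CCGGAAG included Sdhb, Sdhd, Ndufs3, Ndufs8, Cox8a and Uqcrh, none of which was called at either time. A match is a description of the letters in the window.

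The rat pMCAO animal of replicate 2 at 2 h stood apart from the other rat arrays of that time. In this animal 17 of 100 members were more than 0.25 below the sham mean (17.0%), while 10.9% of all rat genes were. In the other pMCAO animals at 2 h the share of members was 1.0% and 2.0%. In the paragraphs on rat members at 2 h and on the species difference, the main values are therefore followed by those without it. Other values that use the 2 h rats include this animal unless stated.

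At 2 h no respiratory chain gene was called in mouse. Of the 89 members 0 passed limma's test, where 0.298% of all genes did, and 2 had an unadjusted p under 0.05, a level that 7.71% of all genes reached. The median difference over the members was -0.01, the same as the median over all genes, and the interquartile range ran from -0.06 to 0.04. The 95% interval of the difference lay within 0.5 of 0 on the log2 scale, a 1.41-fold change, for 86 members (96.6%), and for 89.5% of all genes. It lay within 1 for all 89. The exceptions to the narrower bound were Atp5o and the pseudogene symbols Atp5c1-ps and Uqcrh-ps1.

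Atp5o, which encodes the stalk subunit that conveys oligomycin sensitivity to ATP synthase, had the lowest difference in mouse at 2 h. It read 6.81, 6.94 and 6.62 in pMCAO mice, against 7.13, 7.09 and 7.21 in sham mice. All pMCAO mice were below all sham mice, yet the difference of -0.35 ± 0.11 (SE, n = 3 each) had an adjusted p of 0.371 in limma. At 6 h the groups overlapped, with a difference of 0.12. Cox7c, a small subunit of complex IV, was next by unadjusted p. It read 6.09, 6.08 and 5.96 in pMCAO mice and 6.35, 6.32 and 6.10 in sham mice, a difference of -0.21 with a limma adjusted p of 0.548. Groups without overlap were found for 6 members with higher and 11 with lower readings in pMCAO mice, where 6.24% and 8.39% of all genes had them.

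Among complex V genes of mouse at 2 h, 12 of 17 had a negative difference, with a median of -0.05. The genes of the rotating c-ring, Atp5g1, Atp5g2 and Atp5g3, had differences of -0.19, -0.09 and -0.10. The catalytic subunits Atp5a1 (alpha) and Atp5b (beta) had -0.05 and -0.04. For Atp5b, 11.69, 11.68 and 11.64 in pMCAO mice stood against 11.72, 11.71 and 11.71 in sham mice, so the groups did not overlap although they lay 0.02 apart, and limma's adjusted p was 0.896. Complex IV had 11 of 17 positive differences and a median of 0.06. Over all genes 47.1% of differences were positive.

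At 6 h, 3 of the 89 mouse members were called (3.37%), where 7.43% of all mouse genes were. Cox7b2 was higher in pMCAO mice, and Sdhc and Ndufaf1 were lower. The median over the members was 0.01, and over all genes -0.02. The 95% interval lay within 0.5 of 0 for 85 members (95.5%), against 82.8% of all genes. Unadjusted p was under 0.05 for 10 members, while 23.3% of all genes reached that level. Groups without overlap were found for 5 members with higher readings and 7 with lower ones in pMCAO mice, where 10.7% and 14.6% of all genes had them.

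**Figure D1:**
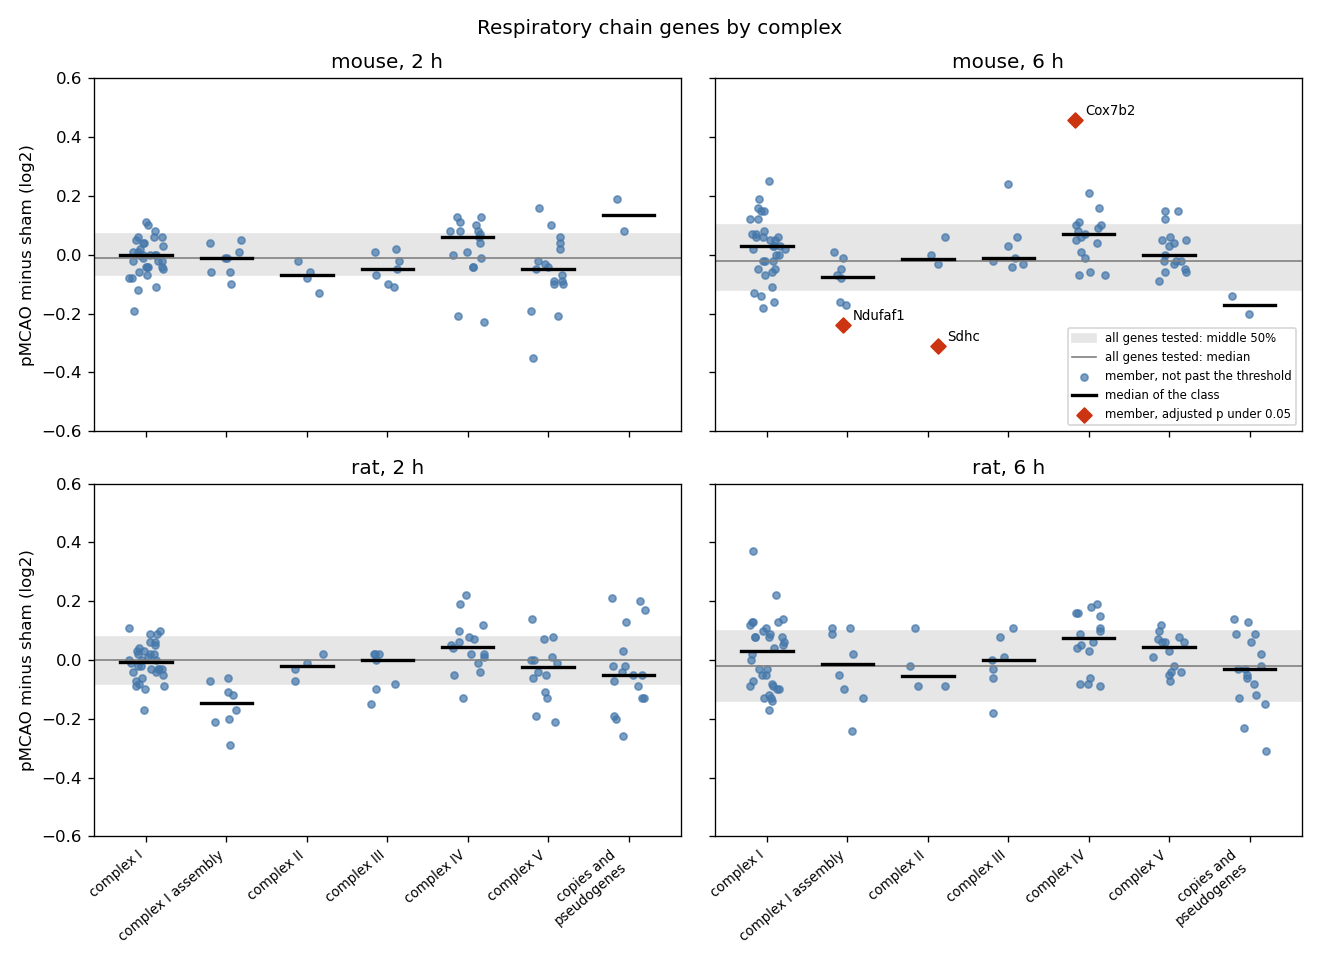
Each point is 1 member's difference, pMCAO minus sham on the log2 scale (vertical axis), by class (horizontal axis), in mouse and rat at 2 h and 6 h. Black bars are class medians, the grey band is the middle 50% of all genes tested, and red diamonds are the members called at 6 h in mouse, Cox7b2 at 0.46, Ndufaf1 at -0.24 and Sdhc at -0.31.

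Cox7b2 encodes a relative of the complex IV subunit COX7B that is known mainly from testis. It read 4.93, 4.62 and 4.74 in pMCAO mice at 6 h, against 4.37, 4.26 and 4.28 in sham mice. Every pMCAO mouse was above every sham mouse, and the difference was 0.46 ± 0.08 (SE, n = 3 each), a 1.38-fold change, with an adjusted p of 0.00815 in limma. These readings lie below the arrays' median over genes, which was 6.29 to 6.31 in pMCAO mice and 6.30 in sham mice at 6 h, and the files give no detection calls. At 2 h the difference was 0.11, with overlapping groups. In rat at 6 h Cox7b2 read 4.44, 4.21 and 4.16 in pMCAO animals and 4.16, 4.11 and 4.07 in sham animals, a difference of 0.16 with a limma adjusted p of 0.392. Its widely expressed relative Cox7b was not called in either species, with differences at 6 h of 0.10 in mouse and 0.06 in rat.

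Sdhc encodes a membrane anchor of succinate dehydrogenase, complex II. It read 8.35, 8.18 and 8.41 in pMCAO mice at 6 h, against 8.70, 8.63 and 8.53 in sham mice. The groups did not overlap, and Sdhc fell by 0.31 ± 0.08 (SE, n = 3 each), a ratio of 0.807, with a limma adjusted p of 0.0335. At 2 h it read 8.70, 8.55 and 8.68 in pMCAO mice and 8.80, 8.72 and 8.79 in sham mice, again with no overlap, but the difference of -0.13 was not called. In rat the differences were -0.07 at 2 h and -0.09 at 6 h, with overlapping groups at both times. The flavoprotein Sdha, which holds the catalytic site, had a difference of 0.00 in mouse at 6 h, and its interval ran from -0.11 to 0.11. Sdhb, the iron-sulfur subunit, had 0.06, and the other anchor Sdhd had -0.03, so no other gene of the complex was called.

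Ndufaf1 encodes an assembly factor for the membrane arm of complex I. It read 7.50, 7.48 and 7.68 in pMCAO mice at 6 h, against 7.77, 7.87 and 7.75 in sham mice. The groups did not overlap, and the gene fell by 0.24 ± 0.07 (SE, n = 3 each), a ratio of 0.847, with a limma adjusted p of 0.0473. Leaving out 1 array at a time ended this call for 11 of the 12 mouse arrays, and with a median-centred scale the adjusted p was 0.0542. In rat at 6 h it read 6.99, 6.88 and 6.73 in pMCAO animals and 7.09, 7.18 and 7.04 in sham animals. The rat difference was also -0.24, with no overlap and a limma adjusted p of 0.132.

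**Figure D2:**
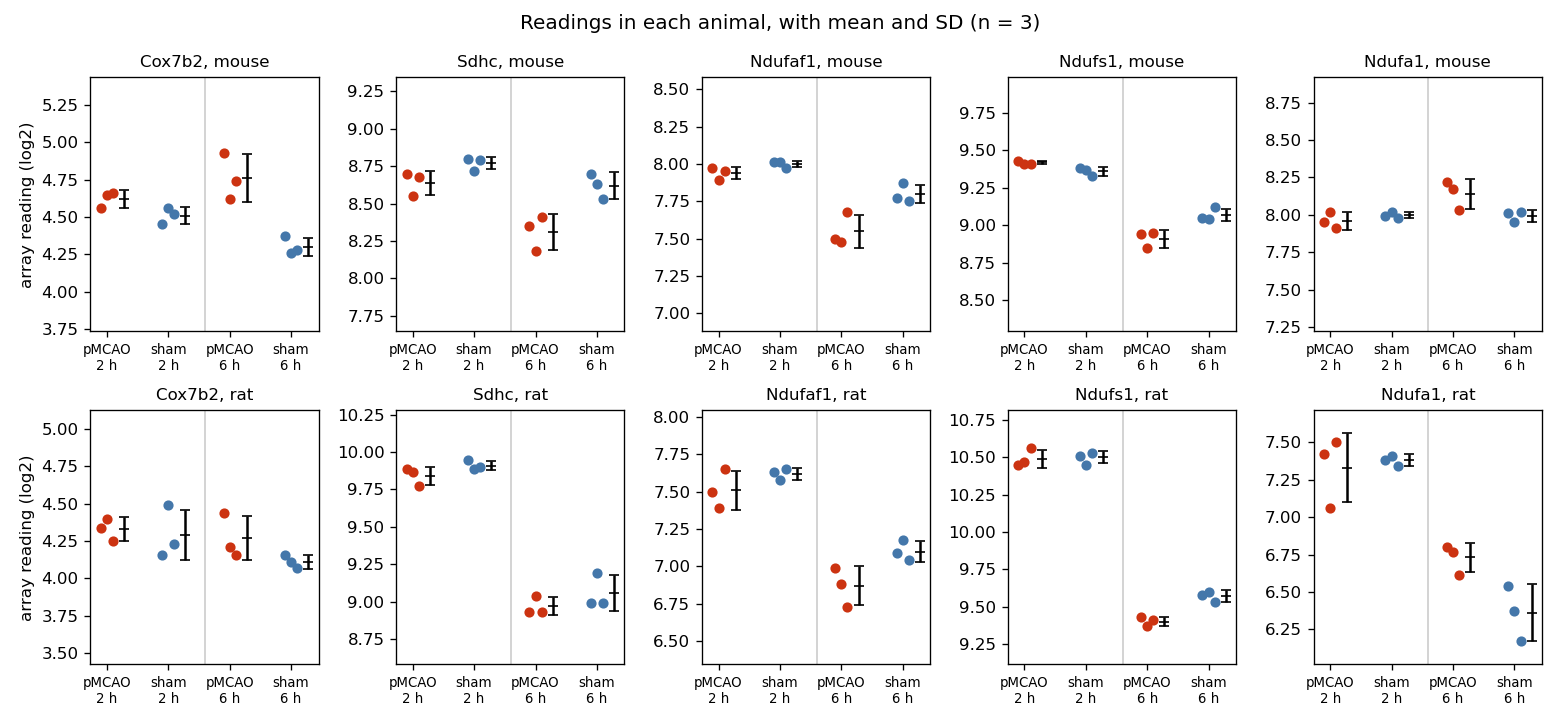
Log2 readings (vertical axis) of Cox7b2, Sdhc, Ndufaf1, Ndufs1 and Ndufa1 in each animal, mouse above and rat below, with pMCAO in red, sham in blue, and the mean and SD of 3 animals as a bar. Each panel spans the same range of log2 units around its own centre. For Ndufaf1 and Ndufs1 the pMCAO animals at 6 h lie below all sham animals in both species.

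The 3 calls in mouse at 6 h depend on the settings. Cox7b2 kept an adjusted p under 0.05 without each of the 12 arrays (0.00783 to 0.0352), while Sdhc lost it without any 1 of 5 arrays of the 6 h groups (up to 0.0982). With the striatal markers of each array as a covariate no member was called, and the adjusted p values were 0.131 for Cox7b2, 0.228 for Ndufaf1 and 0.298 for Sdhc. The differences in that fit were 0.48 for Cox7b2, -0.30 for Ndufaf1 and -0.30 for Sdhc, and 0.289% of all genes were called in it. Those 8 markers of striatal projection neurons averaged 7.22 to 7.40 in pMCAO mice at 6 h and 7.45 to 8.54 in sham mice, 2 of them were called lower, and their part in these results was not tested beyond that fit. The 12 general neuron markers averaged 10.17 to 10.23 in pMCAO mice and 10.27 to 10.29 in sham mice. One of them, Stmn2, a tubulin-binding protein of neurons, was called (-0.22, limma adjusted p of 0.0385). The 8 oligodendrocyte markers averaged 9.20 to 9.30 in pMCAO mice and 8.86 to 9.19 in sham mice, with 0 called. The 7 microglia markers averaged 7.14 to 7.27 in pMCAO mice and 7.32 to 7.40 in sham mice, and 2 were called lower. The 10 neutrophil markers averaged 5.24 to 5.41 in pMCAO mice and 5.14 to 5.16 in sham mice, and 1 was called higher. The array means did not overlap between the groups for these 5 of the 9 marker lists at 6 h, and for 2 of the 9 at 2 h, neuron (lower in pMCAO mice) and neutrophil (higher). The part of these cell types in the members' values was not tested.

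Complex I gave 0 calls among its 34 mouse genes at 6 h, and the signs of the differences were counted by class. Of the 26 accessory subunits, 19 had positive differences, with a median of 0.06, and the share of positive differences over all genes was 45.8%. Of the 6 core subunits, which carry the redox centres, 5 had negative differences. Their median was -0.02, the same as the median over all genes. Ndufs1, the largest core subunit, had the lowest value of these. It read 8.94, 8.85 and 8.95 in pMCAO mice and 9.05, 9.04 and 9.12 in sham mice. The groups did not overlap, and the difference of -0.16 ± 0.05 (SE, n = 3 each) had a limma adjusted p of 0.101. Ndufs3 had -0.13, also without overlap, and Ndufv1, which binds NADH, had 0.05. Ndufs7, Ndufs8 and Ndufv2 lay between -0.02 and 0.

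The accessory subunits of mouse at 6 h ran from Ndufs4 at -0.18 to Ndufb3 at 0.25. Ndufs4, whose loss causes Leigh-like disease in mice, read 9.11, 9.02 and 8.93 in pMCAO mice and 9.23, 9.17 and 9.21 in sham mice, with an adjusted p of 0.116 in limma. Ndufa2 read 8.25, 8.26 and 8.27 in pMCAO mice and 8.14, 8.08 and 8.00 in sham mice, a difference of 0.19 with a limma adjusted p of 0.101. Ndufa1, a small membrane subunit encoded on the X chromosome, had 0.15 and no overlap between the groups. Of the 8 assembly factors 7 had negative differences, with a median of -0.08. Apart from Ndufaf1, Ndufaf6 had no overlap, with 6.16, 6.05 and 6.26 in pMCAO mice and 6.30, 6.33 and 6.33 in sham mice, and a limma adjusted p of 0.279. Under quantile normalization 6 of the 8 were negative.

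Complex III had 0 of 7 genes called in mouse at 6 h. Its Rieske iron-sulfur protein Uqcrfs1 read 6.84, 6.81 and 6.84 in pMCAO mice and 6.81, 6.82 and 6.77 in sham mice. The core proteins Uqcrc1 and Uqcrc2 had differences of -0.03 and -0.01, with intervals within 0.17 of 0. Uqcrq had the highest difference, 0.24, but its readings were scattered, at 7.65, 7.35 and 6.98 in pMCAO mice and 7.25, 7.10 and 6.91 in sham mice, and the interval ran from -0.09 to 0.57.

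In complex IV, 13 of the 17 mouse genes had a positive difference at 6 h, and 12 of 17 did under quantile normalization. The median was 0.07, and apart from Cox7b2 none was called. Cox5a, a nuclear-encoded subunit beside the catalytic core, came closest. It read 9.52, 9.39 and 9.37 in pMCAO mice, against 9.32, 9.18 and 9.16 in sham mice. These groups did not overlap, and the difference of 0.21 had a limma adjusted p of 0.0747. Its value was 0.0206 with a trended and robust spread and 0.0448 after quantile normalization. Cox5b had 0.16 with overlapping groups, and its dimmer cluster had -0.15, also with overlap.

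Complex IV is the complex with the most isoform pairs, in which one gene is used in most tissues and another in few. Cox4i1, the common form of subunit 4, differed by 0.11 in mouse at 6 h, and Cox4i2, the form known from lung and from low oxygen, by 0.05. Cox6a1 and the muscle form Cox6a2 had 0.01 and 0.09, and Cox6b1 and the testis form Cox6b2 had -0.06 and 0.10. The muscle form Cox7a1 had -0.07, Cox7a2 had 0.07, and Cox7a2l, which joins complexes III and IV, had 0.06. Cox8a, Cox8b and Cox8c had 0.08, -0.01 and -0.07. Ndufa4, named for complex I but later placed in complex IV, had 0.02, and its hypoxia-responsive relative Ndufa4l2 had -0.11. Ndufa4l2 read 5.57, 5.60 and 5.56 in pMCAO mice and 5.82, 5.64 and 5.61 in sham mice, and its limma adjusted p was 0.451. None of these isoforms was called, and the intervals of all of them at 6 h lay within 0.5 of 0.

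Complex V had 0 of 17 genes called in mouse at 6 h and a median difference of 0.00. Atp5a1 read 10.94, 10.86 and 10.89 in pMCAO mice and 10.98, 10.90 and 10.88 in sham mice. Atp5b had the same mean in both groups, and its interval ran from -0.11 to 0.11. Atp5c1, the gamma subunit of the rotor, had -0.06. The c-ring genes Atp5g1, Atp5g2 and Atp5g3 had 0.06, 0.05 and -0.06. The highest value in this complex was 0.15, for Atp5k and for Atp5mpl.

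In rat at 2 h, 0 of 100 members were called, where 0.0661% of all rat genes were. An unadjusted p under 0.05 was found for 2 members, against 7.08% of all genes. The median difference was -0.02 over the members and 0.00 over all genes, and 94 of the 100 intervals lay within 0.5 of 0, against 86.4% of all genes. Groups without overlap were found for 4 members with higher and 4 with lower readings in pMCAO rats, where 5.54% and 7.57% of all genes had them. Without the pMCAO animal of replicate 2, 0 members were called and 2 had an unadjusted p under 0.05, a level that 3.92% of all genes then reached. The median over the members turned its sign, to 0.02, with 61 of 100 differences positive against 41 with that animal. Over all genes 48% of differences were positive both with and without it. Of the members' intervals, 97 lay within 0.5 of 0. Of the groups that then did not overlap, 10 were higher and 5 lower in pMCAO rats, where 9.26% and 10.7% of all genes had such groups with 2 animals against 3.

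Cox4i2, a subunit 4 isoform, had the highest difference. It read 6.74, 6.80 and 6.88 in pMCAO rats, against 6.51, 6.61 and 6.63 in sham rats. All pMCAO rats were above all sham rats, and the difference of 0.22 ± 0.07 (SE, n = 3 each) had a limma adjusted p of 0.526. The common form Cox4i1 had 0.08, and complex IV as a whole had 12 of 16 positive differences with a median of 0.04. Without replicate 2 of the pMCAO rats Cox4i2 had 0.23, with a limma adjusted p of 0.998, Cox4i1 had 0.09, and complex IV had 13 of 16 positive differences with the same median. The share of positive differences over all rat genes was 48% in both fits.

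All 8 complex I assembly factors of rat had negative differences at 2 h, with a median of -0.15 and 0 called. Relative to the sham mean, the median of the 8 was -0.11, -0.27 and -0.03 in the pMCAO animals of replicates 1, 2 and 3. Ndufaf4 had the lowest value of all members, with 6.29, 5.69 and 6.24 in pMCAO rats and 6.34, 6.28 and 6.48 in sham rats. Its difference was -0.29, with a limma adjusted p of 0.767. Without replicate 2 of the pMCAO rats Ndufaf4 had -0.10, 7 of the 8 factors had negative differences and the median was -0.04, so the size of this shift rests on that animal.

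In rat at 6 h again 0 of 100 members were called, where 6.47% of all rat genes were. Unadjusted p was under 0.05 for 8 members, while 22.1% of all genes reached that level. The median difference was 0.02, and over all genes -0.02. The interval lay within 0.5 of 0 for 96 members and for 78.6% of all genes. Groups without overlap were found for 10 members with higher and 6 with lower readings in pMCAO rats, where 9.73% and 14.8% of all genes had them.

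Markers of other cell types also stood apart in rat. At 6 h the 7 microglia markers averaged 7.14 to 7.36 in pMCAO rats and 7.41 to 7.48 in sham rats, and 2 were called lower. The 10 neutrophil markers averaged 4.85 to 5.03 in pMCAO rats and 4.51 to 4.71 in sham rats, and 1 was called higher. With 0 called in either list, the 9 striatal markers averaged 7.0 to 7.06 in pMCAO rats and 6.85 to 6.92 in sham rats, and the 5 choroid plexus markers 5.48 to 5.76 in pMCAO rats and 5.18 to 5.45 in sham rats. These are 4 of the 9 lists, and the neuron list overlapped. At 2 h the array means did not overlap for 2 of the 9, neutrophil and pericyte, both higher in pMCAO rats. Their part in the members' values was not tested.

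Ndufa1 had the highest value in rat at 6 h. It read 6.80, 6.77 and 6.61 in pMCAO rats, against 6.54, 6.37 and 6.17 in sham rats. The groups did not overlap, and the difference of 0.37 ± 0.12 (SE, n = 3 each), a 1.29-fold change, had a limma adjusted p of 0.0911. Without the pMCAO animal of replicate 2 at 2 h, which enters the shared estimate of the spread, this p was 0.0426. Among the core subunits Ndufs1 read 9.43, 9.37 and 9.41 in pMCAO rats and 9.58, 9.60 and 9.53 in sham rats. The difference was -0.17, with no overlap and a limma adjusted p of 0.141. As in mouse, 5 of 6 core subunits had negative differences, and 17 of 26 accessory subunits had positive ones, where 45.2% of all rat genes had positive ones. The core median was -0.04, and the median over all genes was -0.02. The lowest value of all, -0.31 for the copy symbol Uqcr11l1, came with readings of 4.16, 4.91 and 5.22 in pMCAO rats and 4.95, 4.94 and 5.32 in sham rats.

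Complex IV of rat had 12 of 16 positive differences at 6 h and a median of 0.08, and 45.2% of all rat genes had a positive difference. Cox4i1 read 9.52, 9.55 and 9.42 in pMCAO rats, against 9.31, 9.24 and 9.41 in sham rats, a difference of 0.18 with a limma adjusted p of 0.163. Cox6b1, which faces the intermembrane space, read 8.81, 8.82 and 8.68 in pMCAO rats and 8.63, 8.58 and 8.62 in sham rats. Its difference was 0.16, with a limma adjusted p of 0.160. Cox4i2 had 0.15 and Cox6a1 had 0.10, also without overlap between the groups. Complex II had Sdhb at 0.11 without overlap and the other subunits between -0.09 and -0.02. Complex III ran from Uqcrb at -0.18 to Uqcrc1 at 0.11. In complex V, Atp5if1, the inhibitor that blocks ATP hydrolysis when the proton gradient is lost, read 9.30, 9.40 and 9.28 in pMCAO rats and 9.24, 9.20 and 9.18 in sham rats. Its difference was 0.12, with a limma adjusted p of 0.397.

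**Figure D3:**
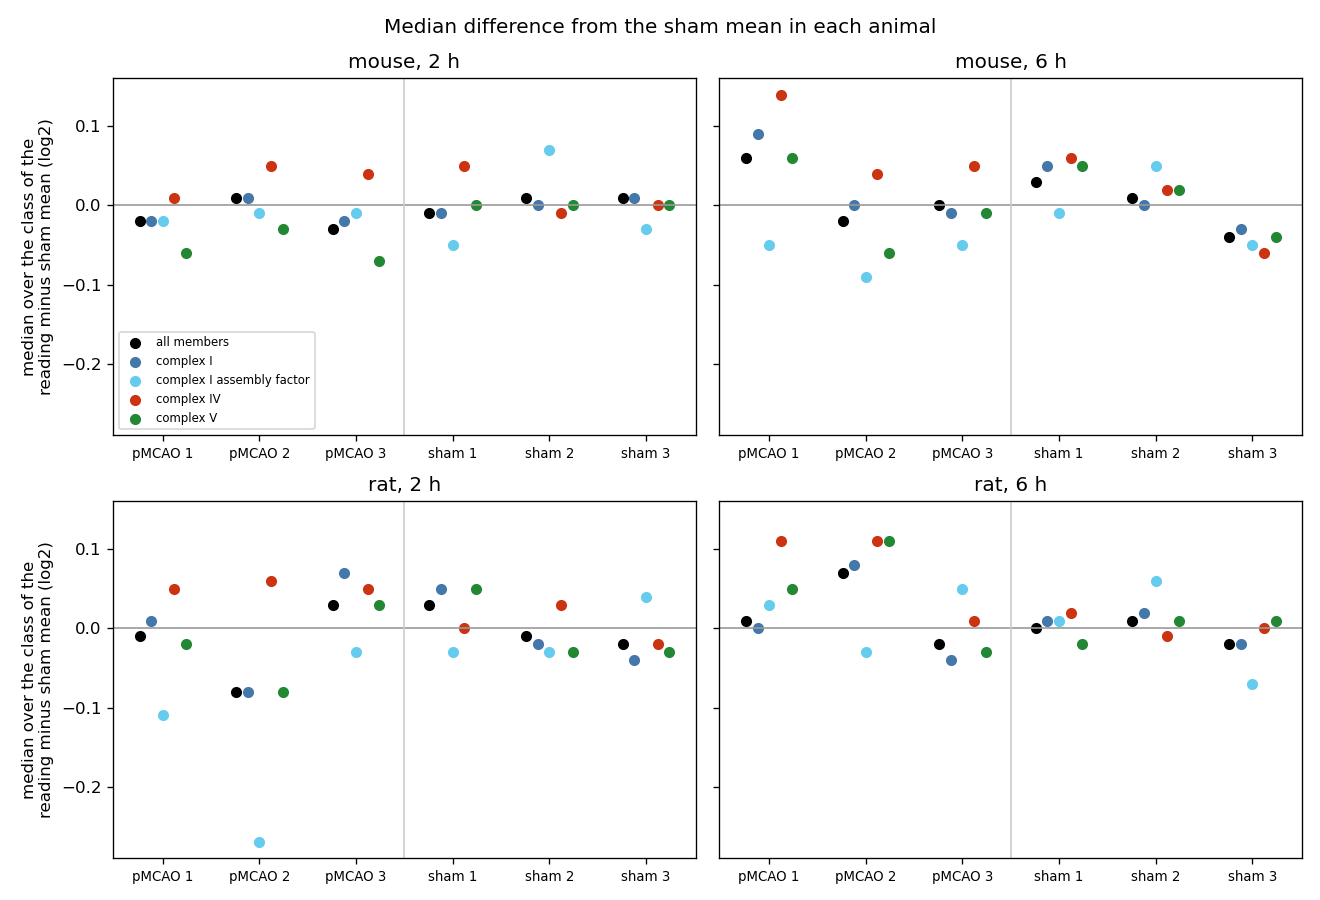
For each animal (horizontal axis, pMCAO left of sham), points give the median over all members, complex I, its assembly factors, complex IV and complex V of the reading minus the sham mean of the same species and time (log2, vertical axis). The plotted values run from -0.09 to 0.14, apart from those of the complex I assembly factors in rat pMCAO animals at 2 h, with -0.11 in replicate 1 and -0.27 in replicate 2.

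By animal, the median over all members differed from the sham mean by 0.06, -0.02 and 0.00 in pMCAO mice at 6 h. In pMCAO rats at 6 h it differed by 0.01, 0.07 and -0.02. For complex IV the medians were 0.14, 0.04 and 0.05 in these mice and 0.11, 0.11 and 0.01 in these rats. These are positive in all 6 animals. The sham animals ranged from -0.06 to 0.06 in mouse and from -0.01 to 0.02 in rat, so the groups overlap in both species. The median array reading over all members was 8.12 to 8.22 in pMCAO mice and 8.08 to 8.14 in sham mice at 6 h.

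The change between the times was tested as the difference at 6 h minus the difference at 2 h. The arrays of the 2 times lie on different scales. In rat the median reading over genes was 7.24 to 7.30 at 2 h, and at 6 h it was 6.42 to 6.46. The minimum of an array lay between 2.57 and 2.73 in rat at 2 h, and between 0.96 and 1.09 at 6 h. In mouse the medians lay closer, within 6.40 to 6.44 at 2 h and 6.29 to 6.31 at 6 h. Whether both times were normalized together is not given in the sources used here, and how the scales bear on a change between the times was not tested. The change was called for 0 members in mouse and 0 in rat, where 0.171% and 0.231% of all genes were. An unadjusted p under 0.05 was found for 5 members in each species, and 14.0% of all mouse and 10.8% of all rat genes had one. The intervals here are wider, and 77 of 89 mouse and 75 of 100 rat members had one within 0.5 of 0.

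The species were compared over 66 members whose symbols match. The mouse difference minus the rat difference was called for 0 members at 2 h and for 0 at 6 h, where 0.0141% and 2.27% of the 14204 matched genes were. At 6 h the lowest adjusted p was 0.232, for Cox7b2, whose difference was 0.30 higher in mouse than in rat. The signs were the same for 43 of the 66 at 6 h and for 35 at 2 h. Neither this share nor the correlation below was computed over all matched genes. Among the 14204 matched genes at 6 h, 1325 had an unadjusted limma p under 0.05 in both species with the same sign. Opposite signs were found for 125, so shared signs are not particular to the members. Across the 66 genes the Pearson correlation of the mouse with the rat differences was 0.49 at 6 h and 0.06 at 2 h, given as a description, since genes of the same arrays share their animals. Without replicate 2 of the 2 h pMCAO rats, 0 members were called at 2 h, 32 of the 66 had the same sign and the correlation was 0.16. When the older mouse names of ATP synthase genes were matched by hand to the newer rat names, 78 members were compared, 0 were called at either time, and the correlation at 6 h was 0.48.

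**Figure D4:**
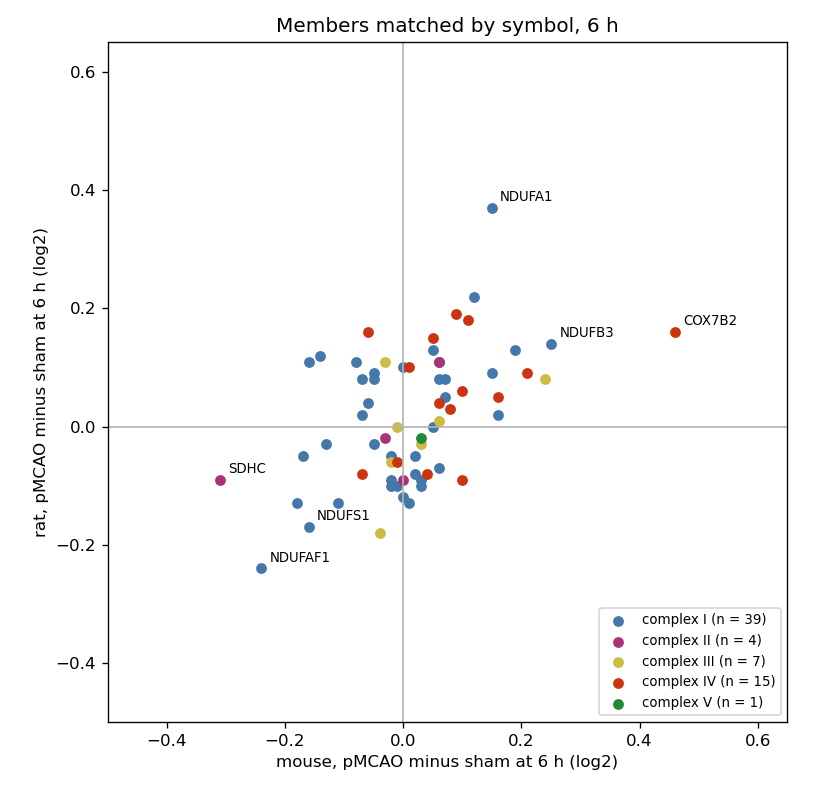
Differences at 6 h, pMCAO minus sham on the log2 scale, in mouse (horizontal axis) and rat (vertical axis), with 1 point for each of the 66 members matched by symbol, coloured by complex. Ndufa1 and Ndufb3 lie to the upper right and Ndufs1 and Ndufaf1 to the lower left, and Cox7b2 lies farthest right at 0.46 in mouse and 0.16 in rat.

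An unadjusted p under 0.05 in both species with the same sign was found at 6 h for 4 of the 66 members (6.06%), where 9.33% of all matched genes had it. These were Ndufa1 (0.15 in mouse, 0.37 in rat) and Ndufb3 (0.25 and 0.14), both small membrane subunits, and Ndufs1 (-0.16 and -0.17) and Ndufaf1 (-0.24 and -0.24). All carry names of complex I or its assembly, as do 39 of the 66 matched members (59.1%). At 2 h 0 members and 1.40% of all matched genes met this condition.

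Genes around the respiratory chain gave 0 calls in any of these lists at 2 h. Their calls at 6 h stand beside 7.43% of all genes called in mouse and 6.47% in rat. The respiratory genes of mitochondrial DNA, 10 measured in mouse and 3 in rat, had 0 calls at either time. At 6 h all 10 had positive differences in mouse, with a median of 0.06, and their mean reading was 12.70 to 12.79 in pMCAO mice and 12.66 to 12.76 in sham mice. Cytochrome c, the carrier between complexes III and IV (Cycs), had -0.03 in mouse and 0.25 in rat, with a limma adjusted p of 0.841 and 0.152. Among 15 citric acid cycle and pyruvate dehydrogenase genes of mouse, 1 was called at 6 h, Pdha1, the alpha subunit of pyruvate dehydrogenase. It fell by 0.23 ± 0.06 (SE, n = 3 each; limma adjusted p of 0.0413), and 0 of 14 such genes were called in rat.

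Among 13 regulators of mitochondrial biogenesis, Tfb1m, which methylates the RNA of the small mitochondrial ribosomal subunit, was called lower in both species at 6 h. It averaged 6.83 in pMCAO mice and 7.15 in sham mice, and 8.10 in pMCAO rats and 8.52 in sham rats. The differences were -0.31 ± 0.08 and -0.43 ± 0.09 (SE, n = 3 each), with limma adjusted p values of 0.0330 and 0.0146. Gabpa, the DNA-binding subunit of GABP, was called lower in rat (-0.40, limma adjusted p of 0.0489) and not in mouse, where its difference was 0.15. Ppargc1a, the coactivator that drives biogenesis, had -0.16 in mouse and -0.02 in rat, and neither was called.

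Of the assembly factors of other complexes, 2 of 36 were called in mouse at 6 h and 2 of 30 in rat. In mouse Bcs1l, which inserts the Rieske protein into complex III, fell by 0.30 and Cox16, an assembly factor of complex IV, fell by 0.23. In rat Cox15, which makes heme A, fell by 0.33, while Cox18, which inserts COX2 into the membrane, rose by 0.44 with a limma adjusted p of 0.00719. In glycolysis, Pfkfb3, whose product raises the rate of glycolysis, rose in both species at 6 h and was the only gene called of 15 in mouse and of 12 in rat. Its difference was 0.46 ± 0.13 in mouse and 1.02 ± 0.22 in rat (SE, n = 3 each), with limma adjusted p values of 0.0465 and 0.0180. The array means of the cytochrome c and glycolysis lists were higher without overlap in pMCAO animals of both species at 6 h. The cytochrome c list held 2 genes, Cycs and Cyc1, which encodes cytochrome c1 of complex III and is not a member by its symbol. In mouse at 6 h only 1 of the 2 had a positive difference, and it was not Cycs. Those of the citric acid cycle list were lower without overlap in mouse at both times. Those of the other assembly factors were lower without overlap in mouse at both times and in rat at 6 h. All other array means of these lists overlapped.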

How the data were processed

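RNA of 24 animals was hybridised to whole-transcript arrays, and sample titles gave the groups. Descriptions and source names name the same 2 times as the titles; another label says 2 h throughout and was set aside. The labels give an RNA integrity number above 7.5. For each species the authors deposited 1 table of log2 values with 2 decimals for its 12 arrays. These were made with oligo and limma (versions not stated), per the submitters' processing notes. How background was corrected and arrays were normalized is not given in the sources used here. Precision is limited by the number of arrays.

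Symbols came from the platform annotation. Per species, limma 3.58.1 in R 4.3.3 fitted the 4 group means to the 12 arrays, moderated the spread with eBayes, and adjusted two-sided p-values with the Benjamini-Hochberg method over all genes with a single-symbol cluster (22180 in mouse, 18166 in rat). With 3 animals against 3, the smallest p of an exact permutation test is 0.1. Species differences used Welch-Satterthwaite degrees of freedom over 14204 matched symbols. The fits were tested on simulated data with known changes. Of genes given a change of 0.5 log2, 56.2% (2 h) and 71.4% (6 h) were recovered in mouse, and 47.6% and 42.3% in rat. For a change of 1 these shares were 94.9% and 79.4% in mouse, and 74.1% and 86.5% in rat. Of the genes called, 9.68% and 5.62% in mouse, and 0.0% and 2.44% in rat, had been given no change. These shares come from 1 run, with 26 to 42 changed genes for each size and comparison. Noise was drawn independently for each gene, so a deviation shared by the genes of an array was not simulated. For the species difference, 40.9% and 62.5% of changes of 0.5 were recovered, and 11.02% and 4.27% of the genes called had been given no change. A change of 0.5 can therefore go uncalled.

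The members and lists were chosen with earlier results of these data known. Genes named were drawn from the members past the threshold, those with the smallest p until 5 per comparison, the isoform families and the core subunits. They were also drawn from the brightest and dimmest member of a complex, and the largest rise and fall past the threshold in each other list. Not all of these are named. In rat at 2 h 1 copy or pseudogene symbol with an unadjusted p under 0.05 in limma is left unnamed. Others named for groups without overlap, for the same sign in both species or for comparison with these were chosen after their values were seen. The alternatives were another spread model, array weights, quantile or median scaling, all clusters, the mean of a symbol's clusters, a filter on dim genes, a replicate block, each array left out in turn, only 6 arrays, and a striatal marker covariate. Promoter windows are from RefSeq on GRCm38.p6.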

Additional observations from a re-analysis of the deposited data

How the results depend on the processing

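In mouse at 6 h, 3 members were called. The count was 6 with a trended and robust spread (11.6% of all genes called), 7 of 76 with dim genes left out (22.4%) and 1 with all clusters tested (2.99%). It was 0 with only the 6 arrays of the comparison (1.11%) and 0 with the striatal marker covariate (0.289%). With 1 array left out it ran from 1 to 3 (2.78% to 6.35% of all genes called). It was 1 without pMCAO replicate 1 or 2 or without any sham replicate of that time. Cox7b2 lost its call with only 6 arrays (adjusted p of 0.0606) and with the covariate. Ndufaf1 lost it in 16 of 22 alternatives and Sdhc in 9 of 22. Over all alternatives the differences ran from 0.38 to 0.53 for Cox7b2, from -0.31 to -0.21 for Ndufaf1 and from -0.36 to -0.24 for Sdhc. Cox5a, Ndufs1, Ndufs4, Ndufa2 and Ndufb3 were called in some of these fits. The cause was not tested, except that the filter changes the genes adjusted over. In rat at 6 h, where 0 were called, 1 of 79 members was called with dim genes left out (Ndufa1), against 17.7% of all genes. With 1 array left out the count was 0 to 1. The member called was Ndufa1 without the 2 h pMCAO replicate 2 (6.69% of all genes called). Without the 6 h pMCAO replicate 2 it was Ndufb4l3 (6.98%). Both 2 h comparisons gave 0 in every alternative. So did the time changes, for which a fit of only 6 arrays does not exist, and the species differences, for which the fits of only 6 arrays and with the covariate were not compared.

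With the replicate block 1 member, Cox7b2, was called in mouse at 6 h (3.00% of all genes called), and it changed no other count. Deviations of same-numbered arrays had a correlation of 0.33 for replicate 2 in rat at 2 h, the pair with the pMCAO animal that stood apart. The other correlations ran from -0.12 to 0.07. Whether the numbers mark pairs or a batch was not tested beyond the block. Of 2964 values of named genes under alternatives, 2929 stayed on their side of the threshold with no called value turning its sign, 27 lost a call and 8 gained one. The 2929 include 125 values of uncalled genes that changed sign, so the signs of uncalled genes are less stable than the calls. The precision is limited by 3 animals per group, with a median width of the members' 95% intervals of 0.32 in mouse and 0.39 in rat, and the dim Cox7b2 has no detection call.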

Other observations

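The clusters with a second symbol, left out of the comparisons, gave a few values of their own. The mouse cluster shared by Uqcrb and Gm10767 read 5.98, 5.72 and 5.97 in pMCAO mice at 2 h, against 5.59, 5.52 and 5.18 in sham mice. At 6 h it read 5.68, 5.95 and 5.72 in pMCAO mice and 5.65, 5.47 and 5.48 in sham mice. The pMCAO mice were above all sham mice at both times, while the cluster of Uqcrb alone had differences of 0.02 and -0.04. The mouse cluster shared by Uqcr10 and Gm6293 read 6.89, 6.94 and 7.14 in pMCAO mice at 2 h and 7.27, 7.35 and 7.11 in sham mice, a difference of -0.25 with overlapping groups. The rat cluster shared by Atp5f1c and Taf3 read 7.55, 7.45 and 7.47 in pMCAO rats at 6 h and 7.67, 7.70 and 7.65 in sham rats, and these groups did not overlap. The mouse cluster shared by Ndufs1 and Ino80dos had -0.06 at 6 h with overlapping groups. Some named genes had a dimmer cluster of their own. At 6 h it had -0.04 for Cox7b in mouse and -0.18 for Cox6b1 in rat, opposite in sign to the clusters used but with overlapping groups. The Cox6b1 cluster was very dim, with 2.77, 2.15 and 2.51 in pMCAO rats and 2.32, 3.35 and 2.29 in sham rats. For Atp5g2 in mouse and Ndufb3 in rat the dimmer cluster had the same sign, with 0.06 and 0.11, also with overlapping groups. The clusters named here were chosen after their values were seen.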
